A study of Mus musculus with 2 samples.

Results

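The regions described here are the open promoters of long noncoding RNA (lncRNA) genes in the gastrocnemius, a calf muscle of the hindlimb, as mapped by DNase-seq, in which the enzyme DNase I cuts DNA where chromatin is accessible. The tissue came from female B6CASTF1/J mice (an F1 hybrid strain) aged 10 days, and each library was labelled as a pool of 3 females. There was 1 group of 2 libraries, biological replicates 1 and 2, with no other condition or treatment. A member is a peak of the shorter deposited peak list of its library that has an lncRNA transcription start site (TSS) no more than 1 kb away, where that TSS is itself more than 1 kb from every protein-coding TSS. Of the 10150 lncRNA genes in 6 GENCODE M21 types (lincRNA, antisense, processed_transcript, sense_intronic, sense_overlapping and bidirectional_promoter_lncRNA), 8396 had such a TSS, and these genes had 11925 such TSSs. The members were 2709 of 114758 peaks in replicate 1 (2.36%) and 758 of 26804 peaks in replicate 2 (2.83%).

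LncRNAs are transcripts without a long open reading frame that are mostly made by RNA polymerase II, and many are capped, spliced and polyadenylated as messenger RNAs are. Some act in the nucleus on chromatin or nuclear bodies, some serve as precursors from which small nucleolar RNAs (snoRNAs) or microRNAs are cut, and for many no function is known. Open chromatin at a promoter marks sites where factors can bind, and is not a measure of the RNA made there.

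The libraries stood apart before any lncRNA gene was considered. Replicate 1 had 4.28 times as many peaks as replicate 2, and with 1 sample of each kind no difference between them carries a test. Markers of muscle were open in part in both. Ckm, the muscle creatine kinase, had heights of 2.63 and 3.46 in replicates 1 and 2 and Actn3, the actinin of fast fibres, 14.7 and 5.02, but Des, Tnnt3 and Myog had a promoter peak in neither. Of 8 muscle markers 4 and 3 had a promoter peak, of 5 neuron markers 5 and 4, of 5 hindlimb position markers 1 and 3, of 3 fibro-adipogenic and tendon markers 3 and 3, of 3 Schwann cell markers 1 and 1, of 3 endothelial markers 1 and 1, and of 3 macrophage markers 0 and 0. Neurod2, a neuronal transcription factor, had a height of 16.1 in replicate 1 and no promoter peak in replicate 2. The other neuron markers, Rbfox3, Snap25, Syn1 and Camk2a, had one in both libraries. Hoxa11 and Hoxa13, limb position genes, had none in replicate 1 and 1.39 and 1.10 in replicate 2. Hoxc10 was shared (1.31 and 2.11), and Pitx1 and Tbx4 had none in either library. Among muscle markers Myod1 (1.59) and Ryr1 (1.46) had one in replicate 1 only and Acta1 (1.22) in replicate 2 only. Whether the pools were dissected alike, or a library is from another tissue than its label says, cannot be told from the files, and every difference between the libraries below carries this limit. Height is the authors' depth-normalized signal at the peak, and is read here mainly within a library, by rank or percentile among all its peaks.

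The promoter sequences below show the kinds of member that the results turn on. They are the GRCm38 (mm10) reference, read 5′ to 3′ on the strand of the lncRNA gene, cut to the central 240 bases where the peak was wider. Capitals mark bases inside a deposited footprint of the library named, a footprint being a stretch within open DNA that is cut less than its surroundings. The first 4 belong to genes with a shared promoter peak and are taken from replicate 1: Malat1 (chr19:5803561-5803780, minus strand), Snhg15 (chr11:6528761-6528960, minus), Snhg5 (chr9:88523021-88523260, minus) and Ftx (chrX:103622411-103622650, minus).
Malat1: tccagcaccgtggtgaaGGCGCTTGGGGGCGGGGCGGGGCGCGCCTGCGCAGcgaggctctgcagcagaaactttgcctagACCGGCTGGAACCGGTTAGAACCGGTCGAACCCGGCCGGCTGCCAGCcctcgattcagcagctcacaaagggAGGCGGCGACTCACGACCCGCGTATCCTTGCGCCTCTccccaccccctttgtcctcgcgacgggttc
Snhg15: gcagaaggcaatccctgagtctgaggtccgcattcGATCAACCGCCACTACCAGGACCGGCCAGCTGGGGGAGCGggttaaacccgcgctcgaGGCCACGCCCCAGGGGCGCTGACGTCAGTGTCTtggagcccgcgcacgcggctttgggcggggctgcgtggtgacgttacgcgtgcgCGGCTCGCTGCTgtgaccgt
Snhg5: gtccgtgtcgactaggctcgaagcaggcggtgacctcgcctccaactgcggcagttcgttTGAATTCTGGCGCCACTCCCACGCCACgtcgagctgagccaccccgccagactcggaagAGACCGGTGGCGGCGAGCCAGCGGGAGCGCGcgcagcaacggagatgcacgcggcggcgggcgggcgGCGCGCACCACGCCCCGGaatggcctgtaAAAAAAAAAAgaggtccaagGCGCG
Ftx: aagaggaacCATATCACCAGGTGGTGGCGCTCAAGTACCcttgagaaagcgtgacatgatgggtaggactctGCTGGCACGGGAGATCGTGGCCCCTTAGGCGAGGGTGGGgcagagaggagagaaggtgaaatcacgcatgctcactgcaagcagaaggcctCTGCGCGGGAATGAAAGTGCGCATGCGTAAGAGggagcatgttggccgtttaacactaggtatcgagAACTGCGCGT

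Footprints covered 119 of the 220 bases at Malat1 and 85 of the 200 at Snhg15. Both GC boxes (GGGCGG, the core bound by Sp and Klf factors) in the Malat1 sequence, at positions 27 to 32 and 32 to 37, lay inside a footprint. In the Snhg15 sequence the cyclic AMP response element (TGACGTCA, positions 113 to 120) and an E box (CAGCTG, positions 62 to 67) also lay inside footprints, while its GC box had 0 bases in one. In the Snhg5 sequence neither GC box (0 and 1 base) nor the GGAATG (2 bases) lay wholly inside a footprint. The Ftx sequence holds an annotated start at position 151, and its GGAATG (the core bound by Tead factors) at 171 to 176 was inside a footprint.

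The next is Atcayos (chr10:81194567-81194709, plus strand), a shared promoter that ranked higher in replicate 2 than in replicate 1, also shown with the footprints of replicate 1. Its TATAAA (positions 97 to 102) lay in no footprint.
Atcayos: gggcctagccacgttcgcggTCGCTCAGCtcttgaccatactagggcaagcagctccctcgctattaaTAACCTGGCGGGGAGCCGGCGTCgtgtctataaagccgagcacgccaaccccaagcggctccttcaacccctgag

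The following 3 come from genes with promoter peaks in replicate 1 and none in replicate 2. They are Mir124a-1hg (chr14:64587141-64587380, plus) and Mir9-3hg (chr7:79499891-79500130, plus), hosts of the neural microRNAs miR-124 and miR-9, and C130071C03Rik (chr13:83721101-83721280, plus), which lies 68493 bp from the nearest protein-coding TSS, that of Mef2c. The cyclic AMP response element of Mir9-3hg (positions 85 to 92) lay inside a footprint.
Mir124a-1hg: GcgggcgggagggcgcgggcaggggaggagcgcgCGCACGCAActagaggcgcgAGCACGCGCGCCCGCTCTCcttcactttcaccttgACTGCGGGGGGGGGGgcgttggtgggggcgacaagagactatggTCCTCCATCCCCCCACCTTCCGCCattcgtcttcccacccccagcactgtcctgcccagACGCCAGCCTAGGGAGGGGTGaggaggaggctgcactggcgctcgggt
Mir9-3hg: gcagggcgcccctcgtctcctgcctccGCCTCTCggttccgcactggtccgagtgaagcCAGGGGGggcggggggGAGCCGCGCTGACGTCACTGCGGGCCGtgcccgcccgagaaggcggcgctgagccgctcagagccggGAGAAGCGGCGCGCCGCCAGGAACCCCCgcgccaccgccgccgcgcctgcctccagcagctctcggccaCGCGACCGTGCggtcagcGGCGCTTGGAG
C130071C03Rik: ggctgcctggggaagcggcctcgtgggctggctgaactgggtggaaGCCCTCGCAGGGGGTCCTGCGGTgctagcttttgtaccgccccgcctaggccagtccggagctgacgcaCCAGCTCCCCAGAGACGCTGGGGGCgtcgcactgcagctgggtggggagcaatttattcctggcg

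The last pair had promoter peaks in the shorter list of replicate 2 only and carry the footprints of replicate 2. They are Dnm3os (chr1:162217721-162217960, plus), an antisense gene inside Dnm3, and Fendrr (chr8:121083646-121083818, minus), which lies beside Foxf1. The Fendrr peak also lies within 1 kb of a protein-coding start. The Dnm3os stretch holds the whole hairpin of Mir199a-2 of RefSeq (GRCm38.p6) at positions 94 to 203, with miR-199a-5p at 124 to 146 and miR-199a-3p at 163 to 184, so the peak covers a microRNA gene as well as annotated starts of its host. Fendrr is known for its role in the mesoderm of the mouse embryo. Its sequence has 3 GC boxes, which had 0 bases in a footprint.
Dnm3os: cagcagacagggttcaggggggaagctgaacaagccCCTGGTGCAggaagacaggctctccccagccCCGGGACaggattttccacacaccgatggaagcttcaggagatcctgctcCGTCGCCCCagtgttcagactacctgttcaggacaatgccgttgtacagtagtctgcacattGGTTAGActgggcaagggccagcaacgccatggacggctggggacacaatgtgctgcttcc
Fendrr: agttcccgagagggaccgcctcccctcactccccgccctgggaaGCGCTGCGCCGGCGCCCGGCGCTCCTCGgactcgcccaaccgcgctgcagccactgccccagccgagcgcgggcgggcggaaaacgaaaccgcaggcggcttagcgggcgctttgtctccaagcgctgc

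Most lncRNA genes had no open promoter, and the libraries differed in how many they held. A promoter peak was found at 1844 of 8396 lncRNA genes in replicate 1 (22.0%, Wilson 95% interval 21.1 to 22.9) and at 540 in replicate 2 (6.43%, 5.93 to 6.98), where the shares over all 55413 annotated genes were 36.4% and 25%. Protein-coding genes had promoter peaks in 66.7% and 51.4% of cases. The difference between the libraries was thus 15.5 percentage points for lncRNA genes and 15.3 for protein-coding genes. Relative to the share in replicate 1, the gap was larger for lncRNA genes (22.0% and 6.43%) than for protein-coding genes (66.7% and 51.4%). As a measure of what position alone gives, 6.15% of the genome beyond 1 kb of protein-coding TSSs lay within 1 kb of a peak of replicate 1 and 0.800% within 1 kb of a peak of replicate 2. The intervals cover counting error only, since neither genes nor peaks are replicates of the tissue.

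A promoter peak was called shared when peaks of both libraries overlapped by at least 50% of either. There were 437 lncRNA genes with a shared promoter peak (5.20%, 4.75 to 5.70), against 21.7% of all annotated genes and 45.0% of protein-coding genes. Another 58 had separate promoter peaks in both libraries, 1349 had one in replicate 1 only, 45 in replicate 2 only and 6507 in neither. Replicate 1 only held 16.1% of lncRNA genes, 11.8% of all annotated genes and 15.7% of protein-coding genes. For replicate 2 only these shares were 0.536%, 0.397% and 0.460%, and for neither 77.5%, 63.2% and 32.9%. Of the lncRNA genes open in replicate 2, 91.7% were also open in replicate 1. Over all annotated genes this held for 13639 of 13859. Some of the genes open in replicate 1 only showed weaker signal in replicate 2: 274 of 1349 (20.3%) had a promoter peak in its longer peak list, and 327 (24.2%) had any base within 1 kb of a start with a deposited false discovery rate (FDR) under 0.05. Of the 45 genes open in replicate 2 only, 18 (40%) had a promoter peak in the longer list of replicate 1. In replicate 1, 23 of these 45 (51.1%) had any base within 1 kb of a start with an FDR under 0.05.

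Openness followed the CpG content of the start. CpG dinucleotides are depleted over most of the mouse genome but kept in CpG islands, where many housekeeping promoters lie. In windows of 250 bp to each side, 74.3% of the lncRNA TSSs had a CpG observed/expected ratio under 0.35 (low), 18.7% lay between (middle) and 7.08% were above 0.6 (high), while 41.8% of the 93513 protein-coding TSSs were high. Among lncRNA TSSs, 15.4% of the low, 35.5% of the middle and 68.1% of the high class had a peak within 1 kb in replicate 1. In replicate 2 the shares were 2.80%, 13.8% and 46.8%. Protein-coding TSSs had 16.4%, 53.1% and 96.3% in replicate 1 and 5.12%, 31.2% and 83.6% in replicate 2. Between protein-coding and lncRNA starts the difference was 1.06 percentage points in replicate 1 and 2.32 in replicate 2 at low CpG content, and 28.2 and 36.8 at high CpG content. These shares count starts, so genes with many starts weigh more, and neighbouring starts can share a peak.

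**Figure D1:**
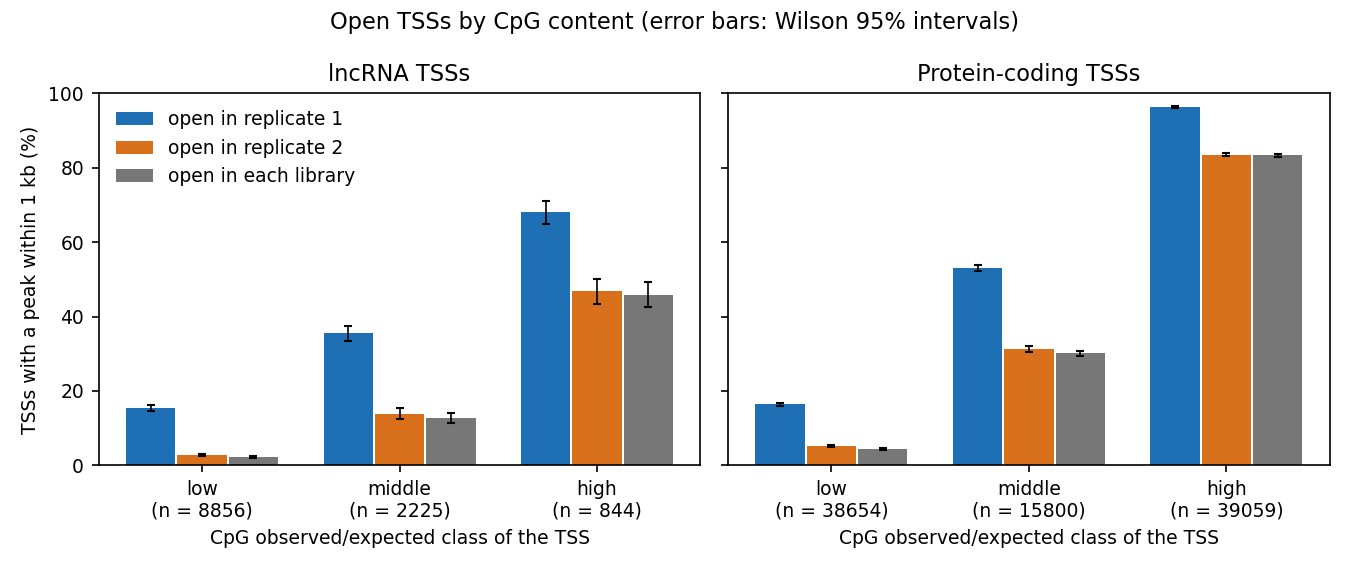
Share of TSSs with a peak within 1 kb (y axis, percent) by CpG observed/expected class (x axis), for lncRNA TSSs (left) and protein-coding TSSs (right). Error bars are Wilson 95% intervals, which treat TSSs as independent although neighbouring starts can share a peak. In replicate 1 the lncRNA share climbs from 15.4% to 68.1% and the protein-coding share from 16.4% to 96.3%.

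The same order held between genes. Of the 437 genes with a shared promoter peak 187 (42.8%) had a start of the high class, against 10.0% of those open in replicate 1 only, 11.1% of those open in replicate 2 only and 2.90% of those open in neither. The peaks themselves showed it too, with a median CpG ratio of 0.659 in the shared and 0.323 in the other members of replicate 1, beside 0.714 at protein-coding promoters and 0.215 in peaks beyond 1 kb of every TSS (distal peaks). Members of replicate 1 with a CpG ratio above 0.6 were shared in 39.6% of cases and those under 0.35 in 7.87%, against 55.1% and 9.65% at protein-coding promoters and 23.9% and 5.28% in distal peaks. In replicate 2 the members were shared in 76.5% and 52.2% of cases.

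Short sequence motifs were searched as fixed letters on both strands in the central 150 bp of each peak. The GC box (GGGCGG) was found in 17.5% of the members of replicate 1, in 35.5% of those shared and 13.1% of the rest, beside 41.7% of protein-coding promoter peaks and 6.43% of distal peaks. In replicate 2 it was in 25.2% of members, 39.1% of protein-coding promoter peaks and 10.1% of distal peaks. The core of the Ets factors (CCGGAAG) was in 2.92% of members of replicate 1, 7.26% of protein-coding promoter peaks and 1.04% of distal peaks. CAGCTG, an E box that myogenic factors bind, had the opposite order: 16.5% of members, 11.4% of protein-coding promoter peaks and 18.1% of distal peaks in replicate 1, and 12.01%, 8.74% and 15.2% in replicate 2. Within the members of replicate 1 the E box was in 10.9% of shared and 17.9% of other peaks, and the AP-1 site (TGANTCA) in 2.64% and 4.36%. The cyclic AMP response element (TGACGTCA) was in 1.11% of members of replicate 1, 1.73% of protein-coding and 0.254% of distal peaks, and GGAATG in 6.53%, 5.43% and 8.62%. The TATA box (TATAAA) was in 2.44% of members of replicate 1, and in 1.58% of protein-coding and 2.92% of distal peaks. None of the strings searched contains another. Matches of such short strings are descriptions of the letters and not binding sites, and the GC box rises with base composition.

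Members were placed less tightly at the start than protein-coding promoter peaks. In width, repeats and footprints they were close to all peaks of their library. Their median width was 180 bp in replicate 1 and 220 bp in replicate 2, as over all peaks. On average 7.89% and 5.78% of a member's bases were repeat-masked, against 8.28% and 5.85% over all peaks. At least 1 footprint lay in 89.3% and 81.9% of members, against 91.5% and 82.2%, and footprints covered 21.4% and 12.4% of their bases, against 22.3% and 12.6%. The centre lay within 200 bp of the nearest counted TSS in 38.5% of members of replicate 1 and 42.5% of those of replicate 2, against 56.5% and 64.9% at protein-coding genes. It lay beyond 500 bp in 37.0% and 31.4%, against 22.4% and 12.2%. The 21938 protein-coding genes had 93513 TSSs and the 8396 lncRNA genes 11925, so a protein-coding promoter peak had more starts to be near. The part that this has in the contrast was not tested. Shared members were closer to the start, with 47.7% of those in replicate 1 within 200 bp against 36.3% of the others.

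**Figure D2:**
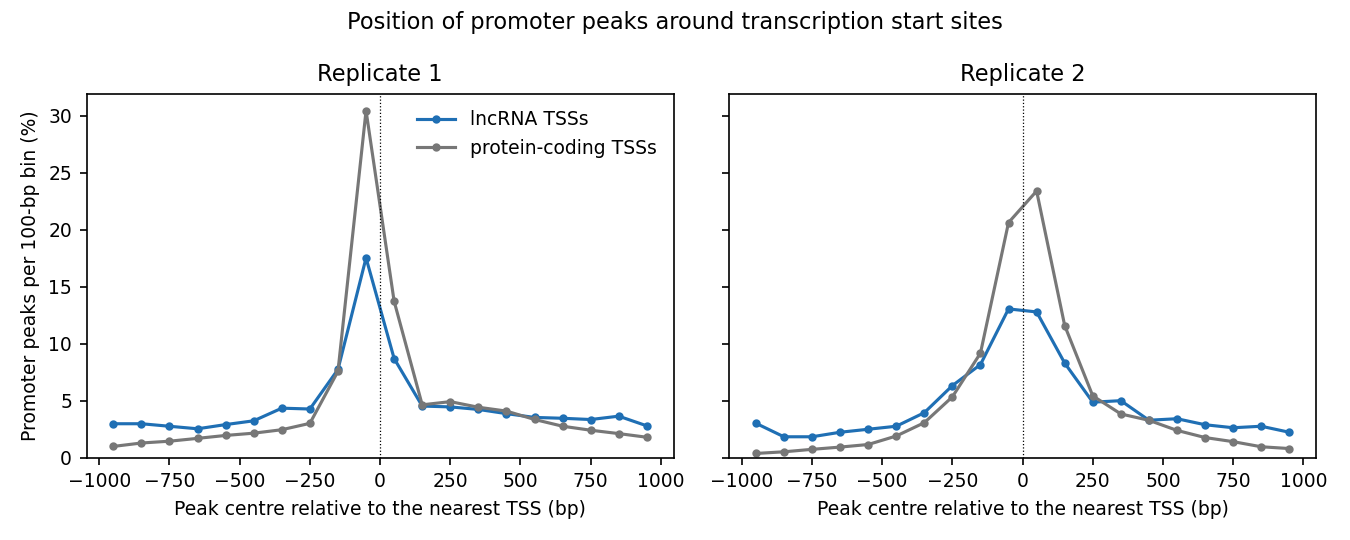
Distribution of promoter peak centres (y axis, percent of peaks per bin of 100 bp) around the nearest TSS (x axis, bp, upstream negative) for lncRNA and protein-coding starts in each library. The bin just upstream of the start holds 17.5% of lncRNA and 30.5% of protein-coding promoter peaks in replicate 1.

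The distance that defines a member had no step at its limit. In replicate 1 the peaks with a gap of 751 to 1000 bp to the start had a median height of 1.22 and 15.5% were shared, and those in the next 250 bp, outside the limit, had 1.36 and 17.9%. Peaks that contained the start had 1.68 and 27.0%. In replicate 2 the shared part was 83.9% for peaks over the start, 67.0% at 751 to 1000 bp and 61.6% in the next 250 bp. The part that also lay within 1 kb of a protein-coding TSS grew from 2.11% to 16.7% in replicate 1 and from 3.81% to 42.3% in replicate 2 between the members over the start and those at 751 to 1000 bp. In all, 193 members of replicate 1 (7.12%) and 115 of replicate 2 (15.2%) lay that close to a protein-coding TSS.

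Openness varied with the distance to the nearest protein-coding gene and, in some distance classes, with whether that gene's promoter was open. LncRNA genes 1 to 5 kb from the nearest protein-coding TSS were open in 30.5% of cases in replicate 1 and 13.5% in replicate 2, and those over 100 kb away in 15.9% and 2.60%. The shared part fell from 10.1% to 2.28% over the same classes, while the part with a high CpG start fell from 9.98% to 3.82%. Of genes at 1 to 5 kb in replicate 2, 19.1% (16.5 to 22.1) were open where the nearest protein-coding promoter was open and 4.64% (3.08 to 6.93) where it was not. In replicate 1 these shares were 33.6% and 18.5%. At 5 to 20 kb they were 6.63% and 7.10% in replicate 2 and 23.4% and 20.8% in replicate 1, with overlapping intervals, and over 100 kb they were 3.42% and 1.66% in replicate 2 and 18.4% and 9.43% in replicate 1. The body of a protein-coding gene was overlapped by 27.6% of members in replicate 1 and 26.9% in replicate 2. A peak within 1 kb of both starts made the lncRNA gene and its neighbour open together, and such peaks were kept. Part of the contrast at 1 to 5 kb is thus set by the counting. The part that such peaks, CpG content or gene density have in these shares was not tested.

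Gene type and number of starts also separated the genes. The processed_transcript genes had a shared promoter peak in 15.3% of cases (83 of 541), lincRNA genes in 4.59% (253 of 5508), antisense genes in 4.60% (92 of 1998) and sense_intronic genes in 2.30% (7 of 305). The smallest types had 0 of 27 (sense_overlapping) and 2 of 17 (bidirectional_promoter_lncRNA). Genes with 1 counted TSS were shared in 3.86% of cases and those with 4 or more in 18.7%, a gene with more starts also having more windows in which a peak can fall. In replicate 1 Gm3764 had the most promoter peaks (10), followed by Mir99ahg (9) and Dleu2, C130071C03Rik and Mir124a-1hg (7 each). In replicate 2 these were Dleu2 (8), AI480526 (7), Mir99ahg (6) and Gm38102 and Zmiz1os1 (5 each).

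Peak height separated shared members from the rest. The median height was 1.29 in replicate 1 (quartiles 0.734 and 2.82), with 3.44 in shared and 1.09 in other members, beside 2.12 at protein-coding promoters and 1.01 in distal peaks. In replicate 2 it was 1.45, with 1.63 and 1.07, beside 1.62 and 1.21. In all, 530 of 2709 members of replicate 1 (19.6%, 18.1 to 21.1) and 529 of 758 of replicate 2 (69.8%, 66.4 to 73.0) were shared. The corresponding shares were 41.4% and 70.3% at protein-coding promoters and 7.48% and 70.5% in distal peaks. Within 1 height class the shares still differed by place in replicate 1, though heights inside a class were not matched. Its tallest class ran from 3.16 to 58.2. It held 40.1% of protein-coding promoter peaks, 22.5% of members and 12.7% of distal peaks. Among the tallest 20% of its peaks, 46.6% (42.7 to 50.6) of lncRNA members were shared, against 67.6% (66.7 to 68.4) of protein-coding promoter peaks and 27.6% (26.8 to 28.5) of distal peaks. Among its lowest 20% the shares were 4.33%, 10.98% and 1.32%. Among the tallest 20% of replicate 2 they were 91.7%, 84.7% and 95.3%, and among its lowest 20% 43.5%, 49.5% and 40.2%.

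**Figure D3:**
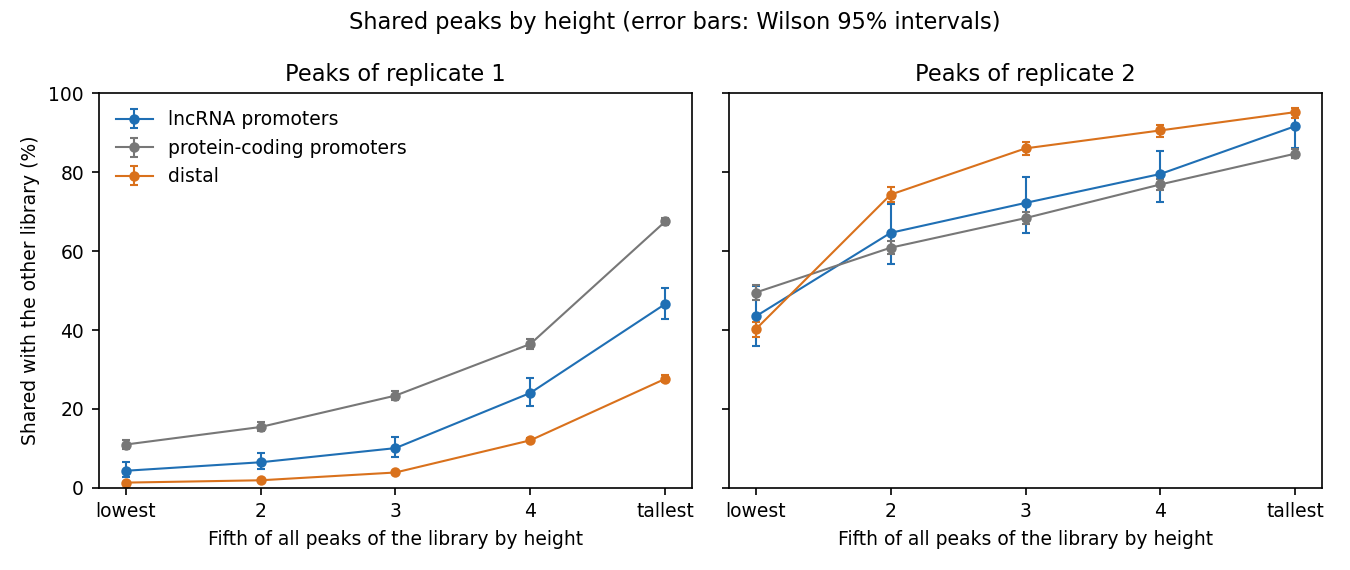
Share of peaks that overlap a peak of the other library (y axis, percent) by 5 equal height classes of all peaks of the library (x axis), for lncRNA promoters, protein-coding promoters and distal peaks; error bars are Wilson 95% intervals. In replicate 1 the lncRNA members lie between both other classes in every height class, and in replicate 2 distal peaks lie lowest in the lowest height class and highest in the other 4.

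With replicate 1 limited to its tallest 26809 peaks (height of at least 2.71; ties kept the number from being 26804), it held 715 members at 604 genes (7.19%), close to the 6.43% of replicate 2. Of these members 44.6% were shared, and 44.1% of those of replicate 2. Protein-coding promoter peaks then had 65.4% and 49.5%. Of the 1349 genes open in replicate 1 only, 269 had a peak in this tall set.

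Over the 437 shared genes heights of the tallest promoter peak in the libraries gave a Spearman coefficient of 0.62, and Pearson's on the log2 scale was 0.59. The tallest peak of a gene need not be its shared peak. The points are genes of the same pair of libraries, share base composition and depth within each, and are not independent. Gm42418 had the best combined rank, with a height of 39.5 in replicate 1 (rank 4) and 89.6 in replicate 2 (rank 1). Its peak, chr17:39846781-39846900, lies inside Rn18s-rs5, a RefSeq pseudogene related to the 18S ribosomal RNA, so reads from other ribosomal DNA copies cannot be told apart there. Gm15408 followed with 24.4 and 6.73, 5031425E22Rik with 22.7 and 5.07 and Malat1 with 29.9 and 4.65. Gm15564, a gene antisense to Kpna1, had 15.2 in replicate 1 (rank 2134) and 19.9 in replicate 2 (rank 11). Gm11527 and 4833417C18Rik had the same tallest peak as each other in each library, of 14.3 in replicate 1 and 5.84 in replicate 2. 6720427I07Rik, Gm26901 and Gm11205 completed the leading genes with 28.2, 20.9 and 16.96 in replicate 1 and 4.07, 4.21 and 4.60 in replicate 2. At Gm11527, 4833417C18Rik, Malat1 and Gm26901 the tallest peaks of the libraries did not overlap, so the paired heights belong to different stretches.

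**Figure D4:**
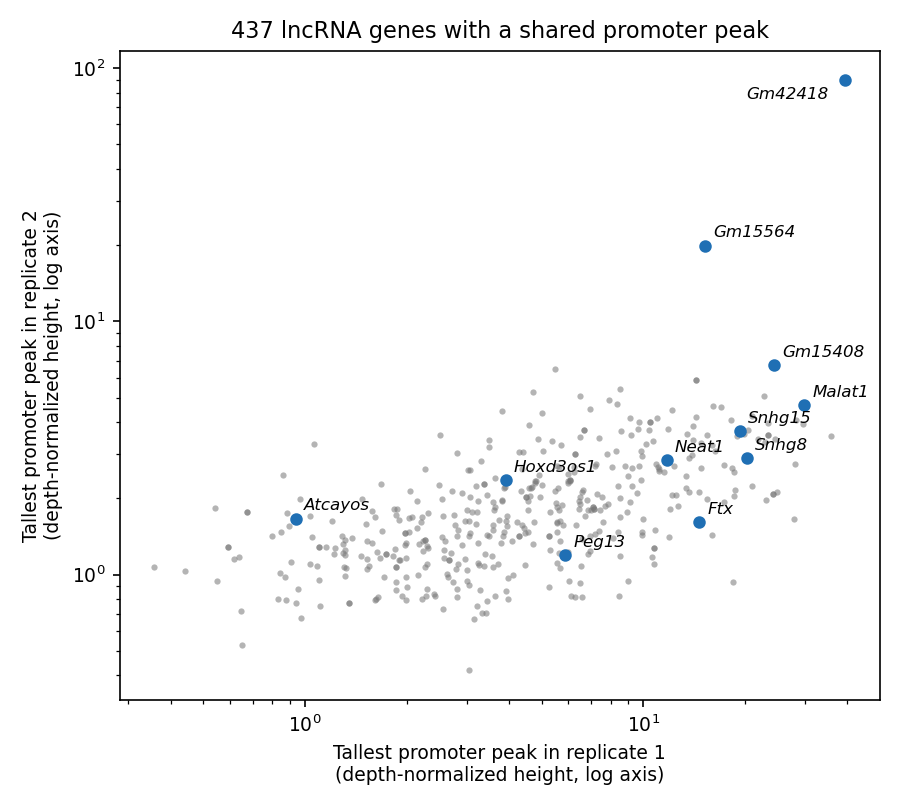
Height of the tallest promoter peak in replicate 1 (x axis) and replicate 2 (y axis), depth-normalized and on log axes, for the 437 lncRNA genes with a shared promoter peak. Gm42418 (39.5 and 89.6) and Gm15564 (15.2 and 19.9) sit above the cloud, and Atcayos (0.937 and 1.66) is low in replicate 1.

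The gene lists that follow are read against the shares over all 8396 lncRNA genes, which were 22.0% in replicate 1, 6.43% in replicate 2 and 5.20% shared. Their members are mostly well-studied genes, and the lists hold 5 to 13 usable members each. Many members have several counted TSSs. Over all lncRNA genes with 4 or more, the shares were 54.2% in replicate 1, 23.9% in replicate 2 and 18.7% shared.

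Among the host genes of snoRNAs and other small RNAs, all 11 usable members had a promoter peak in replicate 1 and 10 in replicate 2 (90.9%), and 8 were shared (72.7%). These genes carry snoRNAs, guides of ribosomal RNA modification, in their introns, and many of their transcripts begin with the oligopyrimidine tract of translation genes. Snhg8 had heights of 20.2 in replicate 1 and 2.88 in replicate 2, Snhg15 19.3 and 3.69, Snhg5 13.6 and 2.89, Epb41l4aos 7.22 and 2.72, Snhg6 6.94 and 1.24, and Snhg17 4.50 and 2.02. Gas5 had 18.6 and 2.53 and Snhg1 12.6 and 1.87, but these peaks also lay within 1 kb of the starts of Zbtb37 and Slc3a2, respectively, and without such peaks 6 hosts were shared. Snhg12 (6.79 and 1.91) and Dancr (7.43 and 2.22) had separate peaks in the libraries. Snhg20 had 2.85 in replicate 1 and only a peak of 1.52 in the longer list of replicate 2. All 11 stayed open in the tall set of replicate 1.

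Of 9 lncRNAs known for high abundance or for roles in growth and stress, 8 were open in replicate 1 (88.9%) and 6 in replicate 2 (66.7%), and 5 were shared (55.6%). Malat1, an abundant RNA of nuclear speckles, had 29.9 and 4.65 (ranks 69 and 368), and its tallest peak in replicate 1 lay entirely upstream of the nearest counted start, with its centre at about the limit of 1 kb. Neat1, the scaffold of paraspeckles, had 11.7 and 2.83, Crnde, a neighbour of Irx5, 16.0 and 3.25, Lncpint 2.30 and 1.30, and Pvt1, a neighbour of Myc, 1.99 and 1.16. Miat (3.59), 2900097C17Rik (3.09) and Trp53cor1, known as lincRNA-p21 (2.18), had a peak in replicate 1 only. Tug1 had 2.21 in replicate 2, within 1 kb of the Morc2a start, and only 0.233 in the longer list of replicate 1. In replicate 1, however, as many as 785 bases near a start of Tug1 had an FDR under 0.05.

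All 5 lncRNAs of the X inactivation centre and its targets were open in replicate 1, and 2 of them (40%) in replicate 2, both shared. Ftx, an activator of Xist, had 14.6 and 1.61, and Jpx, another activator, 4.33 and 2.14. The tallest peaks of Jpx in the libraries did not overlap. Xist, the RNA that coats the inactive X chromosome, had 1.37 in replicate 1 and no peak in either list of replicate 2. In replicate 2 at most 42 bases near any start of Xist had an FDR under 0.05. Tsix, its antisense repressor, had 0.471 in replicate 1 (percentile 11.6), and Firre had 3.95. In replicate 2 Firre had only a peak of 1.34 in the longer list. Both libraries were labelled female, and 0 of the 551 lncRNA genes of chromosome Y had a promoter peak in either.

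Imprinted lncRNAs, which are made from the copy of 1 parent, were open at 6 of 9 in replicate 1 (66.7%) and 3 of 9 in replicate 2 (33.3%), and 1 was shared (11.1%). This was Peg13 (5.85 and 1.19), though its tallest peaks in the libraries did not overlap. Airn, which silences genes around Igf2r, had separate peaks of 1.02 and 1.25. Nespas (9.37), Kcnq1ot1 (5.59), Meg3 (2.70) and Mirg (1.12) had peaks in replicate 1 only. Rian had 0.257 in replicate 2 (rank 26410 of 26804) and a peak of 0.567 in the longer list alone of replicate 1. In replicate 1 at most 146 bases near any start of Rian had an FDR under 0.05. H19, which is made in fetal and newborn muscle, and Snhg14 had no peak in the shorter lists, and H19 had 0.764 in the longer list of replicate 1. The peaks do not separate the parental alleles.

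Of 10 usable microRNA host genes 7 were open in replicate 1 (70%) and 4 in replicate 2 (40%), and 3 were shared (30%). Dleu2, the host of miR-15a and miR-16-1, had 13.4 and 2.44, Mir99ahg, the host of miR-99a and let-7c, 7.69 and 1.87, and Mir17hg, the host of the miR-17-92 cluster, 7.02 and 1.80. At Dleu2 and Mir99ahg the tallest peaks of the libraries did not overlap, so these paired heights belong to different stretches. Mir124a-1hg (7.78), Mir9-3hg (6.35) and Mir124-2hg (2.44) were open in replicate 1 only, with no base of FDR under 0.05 in replicate 2. Dnm3os, the host of miR-199a-2 and miR-214, went the other way, with 2.32 in replicate 2 (percentile 80.9) and no such base in replicate 1. Mir155hg, the host of the immune miR-155, had 0.835 in replicate 1 and 0.740 in the longer list of replicate 2. Mir142hg, the host of the blood cell microRNA miR-142, and Mir133a-1hg, the host of a muscle microRNA, had no peak in any list.

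Neural lncRNA genes were, of the 9 lists, the one with the widest gap between the libraries. Of 13 usable members 9 were open in replicate 1 (69.2%) and 0 in replicate 2, beside 22.0% and 6.43% over all lncRNA genes. With 13 members, 0 is close to the share in replicate 2, while 9 is above that in replicate 1. Some members have many counted TSSs, such as Sox2ot (18) and Rmst (13). Over all lncRNA genes with 4 or more, 54.2% were open in replicate 1 and 23.9% in replicate 2. The neural share in replicate 1 was near that of imprinted lncRNAs (66.7%) and of the microRNA hosts (70%), 3 of which are on both lists. Besides the 3 microRNA hosts, Miat had 3.59, Pantr2 2.12, Sox2ot (which overlaps Sox2) 1.34, Pantr1 1.21 and Rmst 0.829, and Pax6os1, whose peak also lay within 1 kb of the Pax6 start, 0.644. The brain-patterning neighbours Six3os1, Dlx6os1, Nkx2-2os and Otx2os1 had none in either shorter list. In the longer lists the counts were 10 and 2, the 2 of replicate 2 being Sox2ot (0.568) and Rmst (0.322). In the tall set of replicate 1 only 3 remained. Among protein-coding neuron markers 5 of 5 had a promoter peak in replicate 1 and 4 of 5 in replicate 2, the tallest in replicate 1 being Neurod2 (16.1 and none). Whether neural cells or chromatin in the pool of replicate 1 had a part in this count was not tested.

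The tallest promoters open in replicate 1 and in neither list of replicate 2 were Gm10353 (16.9, within 1 kb of the Mta2 start), Zfhx2os (16.0) and Gm20687 (15.1), both in the Zfhx2 locus, 2210409D07Rik (14.4), A830082K12Rik (14.4), which lies 2227 bp from Nr2f1, and Gm35025 (13.4), beside Celsr3. C130071C03Rik had 12.6 with 7 peaks and 1192 bases of FDR under 0.05 in replicate 1 and 0 in replicate 2.

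The genes open in replicate 2 only were few and lower. The tallest of those with no promoter peak in the longer list of replicate 1 either were A930007I19Rik (3.14, within 1 kb of a protein-coding start), Dnm3os (2.32), Gm42917 (1.70, within 1 kb of the Trafd1 start), Ifi30 and C030013C21Rik (1.31 each) and Hoxa11os (1.30). Ifi30 is counted among lncRNA genes only by its GENCODE M21 type, processed_transcript. A930007I19Rik had more bases of FDR under 0.05 in replicate 1 (218) than in replicate 2 (184), and Gm42917 had 32 and 62. Dnm3os, Ifi30 and C030013C21Rik had 0 such bases in replicate 1. Hoxa11os, antisense to the limb gene Hoxa11, had 3 peaks and 1495 bases of FDR under 0.05 in replicate 2 and 0 bases in replicate 1, though its tallest peak lay within 1 kb of the Hoxa11 start. Of 12 Hox cluster lncRNAs 2 were open in each library (16.7%), beside 22.0% in replicate 1 and 6.43% in replicate 2 over all lncRNA genes. With 12 members, neither count is far from these shares. Hoxd3os1 was shared (3.91 and 2.36), Hoxaas2 had 0.979 in replicate 1, and Hotair, Hottip, Hotairm1, Hoxaas3, Halr1, Hoxb3os, Hoxb5os, Haglr and Evx1os had none in either shorter list. Beside genes of mesodermal transcription factors, Tbx3os2 (2.32), Tbx3os1 (1.40) and Foxl2os (0.746, within 1 kb of the Foxl2 start) were open in replicate 1 and Fendrr (1.30, within 1 kb of a protein-coding start) in replicate 2, while Wt1os and Hand2os1 were in neither. In replicate 1 Fendrr had a peak of 0.632 in the longer list and 274 bases of FDR under 0.05. With Dnm3os, which was also on this list, that made 3 (42.9%) and 2 (28.6%) of 7, and 0 shared.

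**Figure D5:**
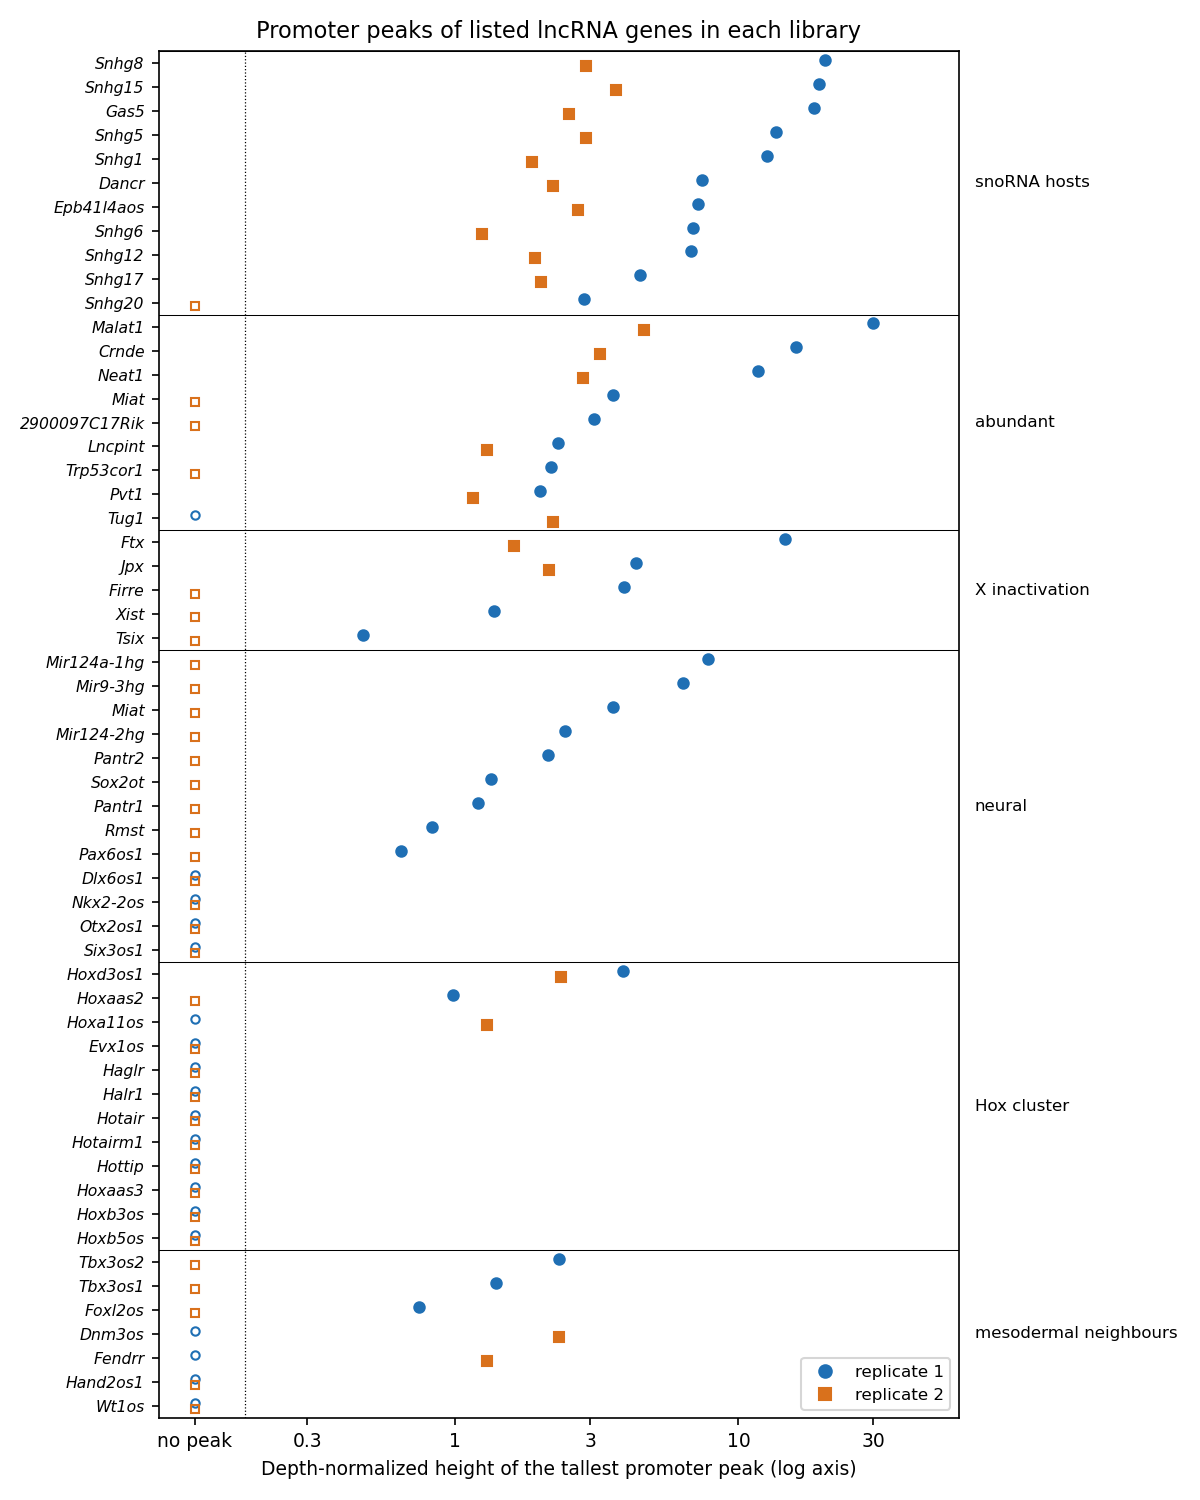
Depth-normalized height of the tallest promoter peak (x axis, log scale) of the lncRNA genes of 6 lists in each library; open symbols left of the dotted line stand for no peak in the shorter list. All 11 snoRNA hosts have a peak in replicate 1, and 0 of the 13 neural lncRNA genes have one in replicate 2. The shares over all lncRNA genes are 22.0% in replicate 1 and 6.43% in replicate 2.

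Among 11 lncRNAs named in work on muscle, 7 were open in each library (63.6%) and 6 were shared (54.5%): Malat1, Neat1, Gas5, Pvt1, Lncpint and Atcayos. Atcayos had 0.937 in replicate 1 (percentile 40.0) and 1.66 with 3 peaks in replicate 2 (percentile 58.8). At most 249 and 1755 bases near any of its starts had an FDR under 0.05. Meg3 was open in replicate 1 only and Dnm3os in replicate 2 only. H19, Mir133a-1hg and Mhrt, a heart lncRNA with a start 1751 bp from a Myh6 TSS, had no peak in either shorter list. All but Atcayos and Mhrt (9 of 11) stand on other lists too, so its count is not separate from theirs. In a tissue sample, fewer cells of a type and less open chromatin per cell cannot be told apart.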

How the data were processed

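Peak lists, footprints and FDR intervals were deposited for each library; according to the deposited descriptions they were derived per library alone from filtered alignments on mm10. Which aligner, peak caller, footprint caller and thresholds made them is not given in the sources used here. Each deposited peak value is a signal height, which the authors normalized to depth. The deposited FDR is a corrected p-value of the cut rate, reaching at most 0.05. Bases with such an FDR were counted within 1 kb of each counted start. The largest count at any start of a gene is the value given for that gene. The score of the deposited footprints is the same in every row and was not used. Read totals are not used here, so depth per library is unknown. No header or label says what separates the 2 peak lists of a library, and the list with fewer rows was used.

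TSSs were the 5′ ends of all transcripts in GENCODE M21 on chromosomes 1 to 19, X and Y. Peaks and TSSs were joined with Python 3.11.15, numpy 2.4.6, pandas 2.3.3 and scipy 1.17.1, and sequences were read from GRCm38 with pysam 0.24.0. Bases in lower case in that genome were taken as repeats. On simulated data, 0 of 2797 overlaps and distances differed from bedtools 2.31.1 or a brute-force search, and 0 of 200 planted open genes were missed. Wilson 95% intervals cover counting error only.

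With 1 group of 2 libraries no test between groups was possible and none was run. Counts per list were set beside the shares over all lncRNA genes. The members, gene lists and motifs were chosen with earlier results of these data known. Named genes were those of the lists, the 10 with the best summed height ranks, the 6 tallest in each library with no peak in either list of the other, the 5 with the most peaks and the 5 shared genes farthest from protein-coding TSSs. List entries without a counted TSS (for instance 8 of 19 snoRNA hosts) were left out. Alternatives were the longer peak lists, distances of 500 bp and 2 kb, other overlaps, taller peaks, equal numbers of peaks, peaks near protein-coding TSSs left out, gene 5′ ends and merged peaks, with chromosome Y left out added after seeing the data.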

Additional observations from a re-analysis of the deposited data

How the results depend on the processing

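No paired analysis was possible because there was only 1 group of libraries. Of 93 values recomputed, 58 stayed within their interval or, for counts, within 1.5 times the main value, and 35 moved. The share of lncRNA genes open in replicate 1 (22.0%) became 30.1% with the longer lists, 17.04% at 500 bp, 29.8% at 2 kb, 13.3% in the tallest 50% of each list, 7.19% at equal numbers of peaks, 20.5% from gene 5′ ends and 23.5% without chromosome Y. The share in replicate 2 (6.43%) became 11.4%, 5.22%, 8.81% and 3.42% under the first 4 of these and 5.74% without peaks near protein-coding TSSs. The shared part (5.20%) became 8.86%, 4.23%, 7.36% and 2.89% under the same 4, 3.56% where 50% of both peaks had to overlap, 3.49% at equal numbers and 4.69% without peaks near protein-coding TSSs, and was 6.43% to 22.0% with a single library. The shared part of replicate 1 members (19.6%) became 24.3% with the longer lists, 22.3% at 500 bp, 22.4% at 1 bp of overlap, 11.7% at 50% of both peaks and 44.6% at equal numbers. That of replicate 2 members (69.8%) became 78.6%, 42.5% and 44.1% under the last 3, and 79.2% in the tallest 50%. Neural genes open in replicate 1 (9) numbered 3 at equal numbers and 5 of 12 from 5′ ends, and those in replicate 2 (0) numbered 2 with the longer lists. Shared snoRNA hosts (8) numbered 4 at 50% of both peaks and 10 to 11 with a single library, and Hox genes open in replicate 2 (2) numbered 1 in the tallest 50%. The settings differ in which peaks or starts they admit by construction. Each library was called alone, depth is unknown and the number of peaks differs, so a promoter without a peak was not shown to be closed.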

Other observations

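The 5 shared lncRNA genes farthest from any protein-coding TSS were Gm38584, Gm47710, AC116857.1, Gm47348 and 4930471G24Rik, all lincRNA genes. Gm38584 lay 741560 bp from the nearest one, that of Arrdc4, with heights of 2.29 in replicate 1 and 0.879 in replicate 2. 4930471G24Rik lay 473725 bp from Rnf144b and was the tallest of the 5, with 9.93 and 1.47. Their heights in replicate 2 ranged from 0.783 to 1.47.

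The 1754 lncRNA genes with no start beyond 1 kb of a protein-coding TSS, which the members leave out, had a promoter peak in 78.2% of cases in replicate 1 and 59.3% in replicate 2, and a shared one in 51.7%, where lncRNA and protein-coding promoters cannot be told apart. By chromosome, shared promoter peaks were found at between 2.93% (chromosome 14, 11 of 376) and 9.06% (chromosome 17, 30 of 331) of lncRNA genes outside chromosome Y.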
